A study of Mus musculus with 14 samples.

Results

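The cytosolic ribosomal protein genes encode the protein subunits of the ribosome that translates mRNA in the cytoplasm. They were taken from the count table by symbol: Rpl or Rps followed by a number with an optional paralog suffix, the stalk genes Rplp0 to Rplp2, and Rpsa. A gene also had to reach 5 CPM, the count divided by the library total and scaled to a common total, in at least 2 libraries. Among 25017 genes, 85 matched by symbol and 67 of these reached the minimum. The other 18 did not, and no count or test of the members below includes them. Levels of some of them are given apart. Nearest to the minimum on the inside were Rpl27 and Rpl10a, whose second highest library held 5.25 and 6.41 CPM. Among those outside, Rpl35 held 4.61 CPM in its second highest library.

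A ribosome has a small subunit, which reads the mRNA and carries the Rps proteins, and a large subunit, which joins the amino acids and carries the Rpl proteins. Cells need the subunits in equal numbers, and most of these mRNAs start with a cytosine followed by a run of pyrimidines, the 5′ terminal oligopyrimidine motif, through which mTORC1 controls their translation together. T cells build many ribosomes when they are activated and divide, and ribosomal proteins that are made in excess of assembly can bind Mdm2 and stabilise p53. Members of the family also have many processed pseudogenes, copies of their mRNA in the genome that can share sequencing reads with the parent gene.

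The libraries came from CD4+ T cells of donor origin, strain C57BL/6 (B6), recovered 30 days after haematopoietic cell transplantation (HCT) into BALB/C recipients. All recipients were given B6 bone marrow depleted of T cells (TCD-BM). Recipients given donor splenocytes as well were the group with chronic graft-versus-host disease (cGVHD) and those without splenocytes the GVHD-free group, so the disease and the splenocyte graft cannot be told apart. Cells were sorted by low or high surface level of PSGL1, a selectin ligand, and 7 groups of 2 libraries were sequenced: GVHD-free spleen PSGL1lo, and cGVHD PSGL1lo and PSGL1hi from spleen, liver and lung. There was no GVHD-free PSGL1hi group. Whether the 2 libraries of each group represent different mice is not stated in the labels. The p-values therefore describe the spread between these libraries only, and that spread may be technical.

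Library totals ran from 13222005 to 33532595 counts, at which 3 counts equal 0.0895 to 0.227 CPM. By their library numbers the 6 spleen libraries form 1 series and the 8 from liver and lung another with higher numbers, so spleen against the other tissues cannot be told apart from the library series, and those levels are given with no test. The summed CPM of 7 CD4 T cell markers was 4386 to 8459 with none at 0, and markers of other cells differed between groups: 2 CD8 T cell genes summed to 11.97 to 32.8 CPM in cGVHD PSGL1lo and 25.8 to 140 CPM in PSGL1hi libraries, and 11 myeloid genes to 40.3 to 124 CPM in liver and 637 to 1199 CPM in lung. The share of these other cells in the ribosomal protein results was not tested, and in bulk samples fewer cells of a type and less RNA per cell cannot be told apart.

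The 67 ribosomal protein genes together took 1.20% to 1.80% of the counts of a library. The 2 GVHD-free spleen libraries had the lowest shares, 1.20% and 1.22%. The cGVHD spleen libraries followed, with 1.26% and 1.31% in PSGL1lo and 1.31% and 1.47% in PSGL1hi cells. Liver PSGL1lo libraries held 1.63% and 1.37%, liver PSGL1hi libraries 1.47% and 1.46%, lung PSGL1lo libraries 1.67% and 1.80%, and lung PSGL1hi libraries 1.73% and 1.76%. All 4 lung libraries stood above all other libraries, whereas the liver PSGL1lo pair spanned the liver PSGL1hi pair. The group means were 1.21% ± 0.015 for GVHD-free spleen, 1.28% ± 0.030 and 1.39% ± 0.12 for cGVHD spleen PSGL1lo and PSGL1hi, 1.504% ± 0.18 and 1.46% ± 0.0093 for liver, and 1.73% ± 0.093 and 1.74% ± 0.021 for lung (SD, n = 2 each).

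**Figure D1:**
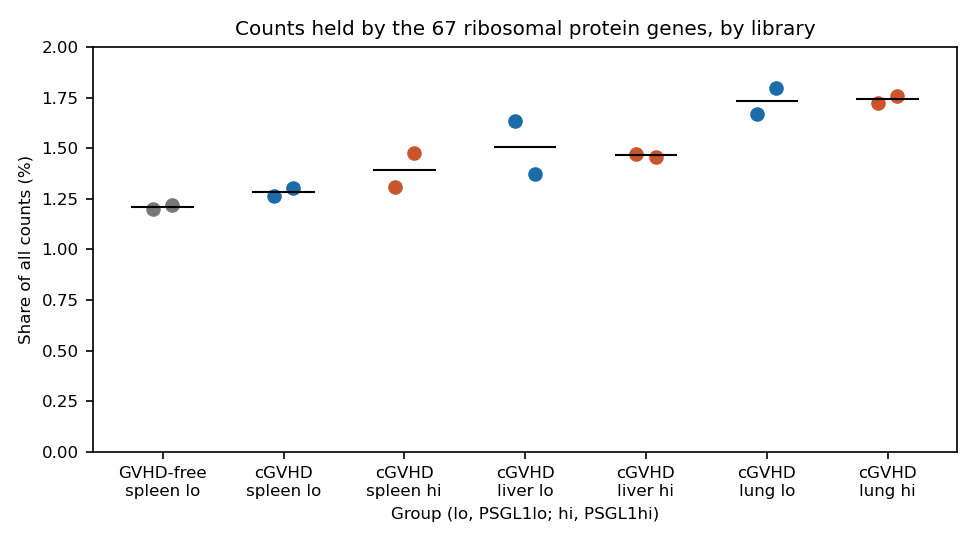
Share of all counts that fell on the 67 ribosomal protein genes (vertical axis, percent) in each library, by group, with dots for libraries and a bar for the mean of 2. The GVHD-free spleen libraries are lowest at 1.20% and 1.22%, and the 4 lung libraries are highest at 1.67% to 1.80%.

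Per kilobase of transcript the members were far from equal. Mean levels over the 14 libraries, in CPM scaled between libraries by the TMM method and divided by transcript length, ran from 4.67 for Rpl24, a large subunit protein added late in assembly, to 1427 for Rpl8, with a median of 72.4. Other high members were Rpl4 (1243 CPM per kb), which lines the tunnel for the growing peptide, Rplp1 (964), a stalk protein, and Rps3 (832), which lies at the mRNA entry. The nuclear genes for mitochondrial ribosomal proteins had a median of 16.5 CPM per kb.

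The level of a member went with how much of its transcript is found in no other gene. Every transcript was divided into all overlapping stretches of 50 bases, and the share of stretches absent from every other annotated gene, pseudogenes included, was taken from the GENCODE M21 transcripts. The median was 44.5% for the 67 members and 97.2% for 78 mitochondrial ribosomal protein genes. The 29 members with at least 50% such stretches had a median of 262 CPM per kb, and the 38 with less had 25.7 (the split was chosen after the values were seen). Across the 67 genes, which share the same libraries and are not independent replicates, Spearman's rho of unique share and level was 0.55. Far apart on the scale, Rps3 was 97.0% unique at 832 CPM per kb, and Rps27 had 1.35% unique stretches. The labels do not tell how reads that match several genes were treated, so the level of a member with a low unique share is uncertain. That share is given beside only some of the members described below. Without it, or with a bound only, are Rpl10 (7.87%), Rps12 (14.6%), Rps6 (15.4%), Rps13 (17.0%), Rpl24 (18.3%), Rpl17 (21.35%) and Rpl15 (24.8%). The same holds for Rpl22l1 (34.4%), Rpl11 (37.8%), Rpl21 (44.5%), Rpsa (46.3%) and other members.

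**Figure D2:**
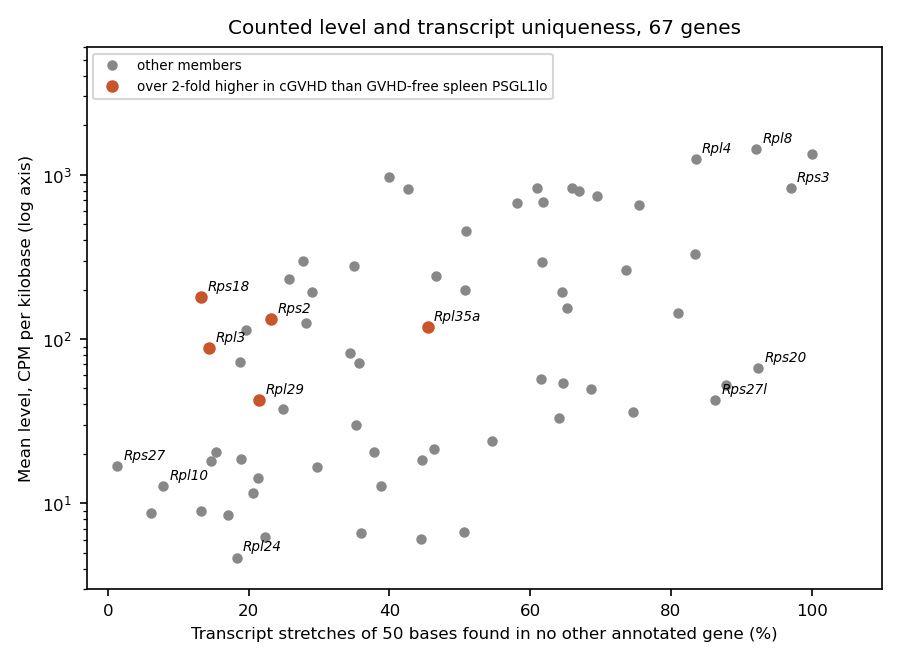
Mean level of each of the 67 members (vertical axis, CPM per kb, log scale) against the share of its 50-base stretches found in no other annotated gene (horizontal axis, percent), with the 5 genes that were over 2-fold higher in cGVHD than in GVHD-free spleen in orange. Members with a unique share of 50% or more had a median of 262 CPM per kb and the others 25.7, and all 5 orange genes have a unique share of 45.5% or less.

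Among the 18 matching genes under the minimum, Rpl26 had 0 counts in every library, which at these depths allows up to 0.0895 to 0.227 CPM, and Rps29 held 0.281 to 1.74 CPM. Rps27a, made as a fusion with ubiquitin, held 1.10 to 4.197 CPM. Other ribosomal proteins with symbols outside the rule were Rack1, a scaffold on the small subunit, with 1539 to 2224 CPM, Fau with 218 to 368 CPM and Rpl36al with 22.5 to 33.7 CPM. The paralogs Rpl3l and Rpl10l reached at most 0.134 and 0.0446 CPM, and Rpl36a, the parent of Rpl36al, held 0.170 to 2.18 CPM. Rpl39l, the paralog of the tunnel protein gene Rpl39, held 0 to 0.783 CPM in the 6 spleen libraries and 1.69 to 3.10 CPM in the 8 liver and lung libraries, with no overlap. Rps4l, paralog of Rps4x, held 0.151 to 1.03 CPM in spleen and 0.892 to 2.06 CPM in liver and lung, and these ranges overlapped.

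The promoters of the members shared a feature that the rule did not use. A C followed by at least 7 C or T, on the strand of the gene and between 20 bases before and 50 bases after the RefSeq gene start (GRCm38.p6), was present in 41 of the 52 members with an entry in that table (78.8%). It was present in 16 of 69 mitochondrial ribosomal protein genes (23.2%), in 2506 of the 10780 tested genes with an entry (23.2%) and in 6135 of all 27025 entries (22.7%). The 15 members without an entry are not described. A match says only that these letters are there, and the read counts do not show where transcripts start. The run, in capitals, is printed with the bases around it for 7 members that the comparisons below turn on, 5′ to 3′ on the strand of the gene, to show how it varies in length and place. Positions of the run are counted from the gene start, which is position 0. Rps18 (chr17:33955647-33955676, minus strand, run from position -2), Rps6 (chr4:86857348-86857377, minus, -1) and Rps10 (chr17:27635227-27635256, minus, -3) have it across or next to the start. Rps27l (chr9:66946065-66946094, plus, -12) has it before the start, and Rpl35a (chr16:33056468-33056497, plus, 24) and Rps2 (chr17:24720094-24720112, plus, 40, where the window ends) after it. Rpl4 has 2 runs, of 13 bases before the start (chr9:64173361-64173390, plus, -17) and of 15 bases after it (chr9:64173404-64173433, plus, 26).
Rps18: tcacttccgCTCTCTCTTCCacaggaggcc
Rps6: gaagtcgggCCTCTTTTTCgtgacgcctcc
Rps10: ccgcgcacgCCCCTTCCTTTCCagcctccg
Rpl4, before the start: gtgacaagtCTTTCCTTTTCCTgtgggagc
Rpl4, after the start: ggagcgtggCCTTCTCCTCTCCCCgtcatg
Rps27l: tcctctccaCTCCTCCCCgccgcctctatc
Rpl35a: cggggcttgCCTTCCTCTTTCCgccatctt
Rps2: tccgcggcgCCTCCCTCTT

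In the spleen, comparing PSGL1lo cells of cGVHD with those of GVHD-free recipients asks how the genes differ with disease. A small set of ribosomal protein genes was more than 2-fold higher in cGVHD, a share not far above that of all genes tested. Most of the family differed little. With edgeR's quasi-likelihood F test, adjusted by Benjamini-Hochberg over 13780 genes (adjusted p under 0.05), 11 of 67 members were higher (16.4%, against 14.7% of all genes tested) and 2 were lower (2.99%, against 12.8%). The median log2 change was 0.10 over the members and 0.01 over all genes tested (0.064 over the members without cGVHD PSGL1lo replicate 2), and the standard error of a member was typically 0.11. The 5 members Rpl29, Rps2, Rpl35a, Rps18 and Rpl3 were more than 2-fold higher (7.46%, against 4.96% of all genes tested). The count is uneven over libraries: 6 members were higher without GVHD-free replicate 2 and 7 without cGVHD PSGL1lo replicate 2, and both lower calls were lost when any 1 of the 4 libraries was left out. The 6 largest increases passed under every alternative tried.

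Rpl29, a large subunit protein that also binds heparin, stood at 5.48 and 8.24 CPM in the GVHD-free libraries and at 19.9 and 18.5 CPM in cGVHD spleen PSGL1lo. Both GVHD-free values were below those of all 12 cGVHD libraries, whose lowest was 17.98 CPM. The log2 change was 1.497 with a standard error of 0.17 (adjusted p = 4.8e-07). Its unique share was 21.5%, and 81 annotated pseudogenes share a stretch with it.

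Rps2, which lies near the mRNA entry of the small subunit and whose pyrimidine run is printed above, had 48.6 and 54.4 CPM in GVHD-free and 127 and 124 CPM in cGVHD PSGL1lo libraries. The other cGVHD libraries held 117 to 164 CPM, so the GVHD-free pair stood apart from all of them. The log2 change was 1.28 with a standard error of 0.10 (adjusted p = 8.4e-10), at a unique share of 23.2% with 71 pseudogenes.

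Rpl35a, a large subunit gene mutated in some cases of Diamond-Blackfan anaemia, had 18.3 and 18.9 CPM in GVHD-free and 43.9 and 43.0 CPM in cGVHD libraries (log2 change 1.22, SE 0.13, adjusted p = 1.2e-07). Rps18, in the head of the small subunit, had 32.9 and 30.4 CPM against 71.8 and 74.0 CPM (log2 change 1.20, SE 0.09, adjusted p = 1.6e-09). Rpl3, a protein of the peptidyl transferase centre, had 53.1 and 51.9 CPM against 113 and 118 CPM (log2 change 1.13, SE 0.08, adjusted p = 2.6e-10). In each of the 3 the 2 GVHD-free libraries were below all 12 cGVHD libraries. Their unique shares were 45.5%, 13.3% and 14.4%.

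Rplp0, the scaffold of the stalk that recruits elongation factors, is alone among the 6 largest increases in having a unique share over 50% (58.2%). It had 449 and 495 CPM in the GVHD-free libraries and 816 and 740 CPM in cGVHD PSGL1lo, a log2 change of 0.72 with a standard error of 0.08 (adjusted p = 5.1e-07). All 12 cGVHD libraries were above both GVHD-free libraries, with 740 to 1314 CPM. The other stalk genes did not pass: Rplp1 had 629 and 668 against 578 and 573 CPM (log2 change -0.17, adjusted p = 0.25), and Rplp2 had 104 and 105 against 109 and 103 CPM (0.02, adjusted p = 0.95).

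Of the smaller changes that passed, Rps6, the target of S6 kinase, had 18.7 and 15.8 CPM in GVHD-free and 24.95 and 25.6 CPM in cGVHD PSGL1lo cells (log2 change 0.55, adjusted p = 0.0035). The spleen PSGL1hi libraries were as high, at 23.6 and 27.9 CPM, while the 8 liver and lung libraries held 11.6 to 17.7 CPM. Rps13 was lower, with 7.01 and 6.66 against 4.10 and 4.51 CPM (log2 change -0.67, adjusted p = 0.035), and so was Rpl15, with 46.1 and 45.5 against 35.7 and 37.6 CPM (-0.32, adjusted p = 0.025). Without GVHD-free replicate 2 the change of Rps6 was 0.44 (adjusted p = 0.062), and without any 1 library those of Rps13 and Rpl15 were -0.74 to -0.59 and -0.36 to -0.28 and did not pass. For Rps13 and Rpl15 both GVHD-free libraries were above all 12 cGVHD libraries. Over the whole family both GVHD-free libraries were below all 12 cGVHD libraries for 21 members (31.3%), against 11.6% of all genes tested, and above them for 2 (2.99%, against 12.2%). Among the 21 were highly unique genes with small differences, such as Rps3 (97.0% unique, 1238 and 1257 CPM in GVHD-free libraries, 1381 to 2039 CPM in cGVHD). The 8 liver and lung libraries among the 12 belong to the other library series.

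By unique share, the members higher in cGVHD spleen were 2 of the 29 at or above 50%, Rplp0 and Rps9, and 9 of the 38 below it, and both lower members were below it. The median log2 changes of the 2 classes were 0.09 and 0.10. Reads of pseudogenes and parents were not separated here, and their part in these changes was not tested.

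Genes of cell state and of other cells moved in the same comparison. Of 26 proliferation genes 7 were higher, and the list summed to 2858 and 2859 CPM in GVHD-free and 3330 and 3299 CPM in cGVHD PSGL1lo libraries. Of 12 naive and memory T cell genes 9 were lower and 2 higher (median -0.74), with sums of 2196 and 2176 against 1569 and 1629 CPM. Of 7 B and plasma cell genes 5 were lower (median -2.27), with sums of 143 and 140.1 against 116 and 123 CPM, and 2 of 3 NK cell genes were lower. The 11 myeloid genes, 4 higher and 2 lower, summed to 142 and 133 against 203 and 195 CPM, and both erythroid genes were higher, at 13.8 and 12.3 against 26.3 and 24.4 CPM. The part of these in the ribosomal protein changes was not tested.

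**Figure D3:**
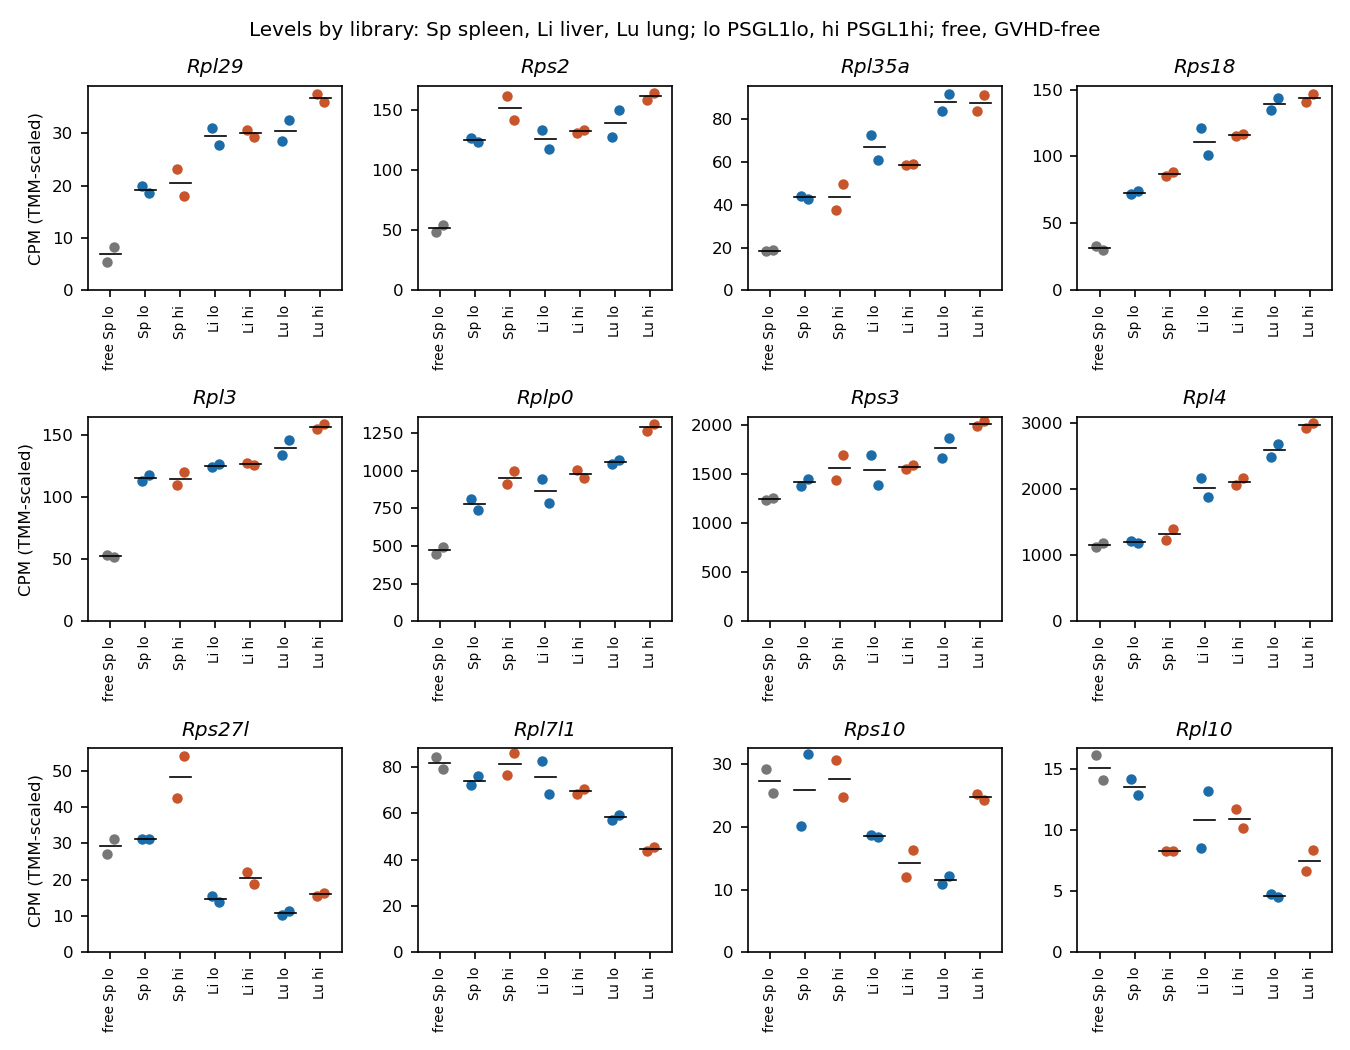
Level of 12 ribosomal protein genes (vertical axes, TMM-scaled CPM from 0) in each of the 14 libraries, by group, with 1 dot per library and a line at the mean of 2. Rpl29, Rps2, Rpl35a, Rps18, Rpl3 and Rplp0 are lowest in the 2 GVHD-free libraries, and Rps27l is lower in PSGL1lo than in PSGL1hi libraries in each tissue.

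Within cGVHD, PSGL1lo was compared with PSGL1hi in each tissue, which asks whether the sorted fractions differ in ribosomal protein mRNA. Few members were higher in PSGL1lo in any tissue, and the share that was lower was close to or under that of all genes tested. In spleen 3 members were higher (4.48%, against 15.8% of all genes tested) and 10 lower (14.9%, against 16.7%). In liver 1 was higher (1.49%, against 8.5%) and 4 lower (5.97%, against 12.3%). In lung 1 was higher (1.49%, against 12.9%) and 16 lower (23.9%, against 20.1%). The member medians were -0.07, -0.02 and -0.18 on the log2 scale, against 0, -0.02 and -0.03 over all genes, and in lung 59 of the 67 members had a negative change. Scaling by library totals alone turned the liver median to 0.05 and brought the lung median to -0.03. The spleen median was 0.0049 without PSGL1hi replicate 2 and -0.13 without PSGL1hi replicate 1, and the liver median 0.068 without PSGL1lo replicate 2 and -0.10 without PSGL1lo replicate 1. In lung it was -0.12 without PSGL1lo replicate 1. The difference between tissues in this effect was itself tested, and passed for 1 member between liver and spleen (1.49%, against 6.84% of all genes tested), 7 between lung and spleen (10.4%, against 16.6%) and 1 between lung and liver (1.49%, against 5.97%).

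Proliferation genes moved with the fractions in the same libraries. Of the 26 listed, 26 were lower in PSGL1lo in spleen, 24 in liver and 25 in lung, with medians of -1.06, -0.51 and -1.12. The 2 CD8 T cell genes summed to 11.97 and 12.6 against 77.7 and 78.0 CPM in spleen, 32.8 and 28.8 against 140 and 139 CPM in liver, and 12.1 and 12.4 against 25.8 and 27.5 CPM in lung. Of 3 NK cell genes 3 were lower in PSGL1lo in spleen and 2 in each of liver and lung. Of the 11 myeloid genes 7 were lower in spleen PSGL1lo, with sums of 203 and 195 against 393 and 423 CPM, 1 was lower in liver and 1 higher in lung. Of 18 immediate early and stress genes 12 were lower and 1 higher in lung PSGL1lo, whereas 7 were higher and 2 lower in spleen and 7 higher and 3 lower in liver. The part of these in the ribosomal protein differences was not tested.

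Rps27l, the paralog of Rps27 that p53 induces and that takes part in Mdm2 turnover, was the 1 member lower in PSGL1lo in all 3 tissues (1.49% of members, against 6.25% of all genes tested). In spleen it had 31.2 and 31.1 CPM in PSGL1lo and 42.6 and 54.0 CPM in PSGL1hi libraries (log2 change -0.63, SE 0.12, adjusted p = 4.2e-04). In liver it had 15.4 and 13.9 against 22.1 and 18.8 CPM (-0.48, SE 0.13, adjusted p = 0.010), and in lung 10.3 and 11.4 against 15.6 and 16.4 CPM (-0.56, SE 0.14, adjusted p = 0.0028). The fractions did not overlap in any of the 3 tissues, and the levels in spleen were above all those in liver and lung. The liver call was lost without liver PSGL1hi replicate 1 (-0.36, adjusted p = 0.16), and the others held under every alternative. The transcript is 86.3% unique, so little of it is shared with other genes.

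Over the 7 group means, the 5 genes most like Rps27l in log2 level were Mms22l (Pearson r = 0.996), Nup205 (0.994), Ccnf (0.994), Wdr76 (0.993) and Recql4 (0.993), a description over 7 points that share 14 libraries. The parent gene Rps27 (1.35% unique) went the other way in liver, with 5.58 and 5.98 CPM in PSGL1lo and 2.92 and 3.66 CPM in PSGL1hi libraries. These did not overlap, and the log2 change was 0.80 with a standard error of 0.21 (adjusted p = 0.0089), lost without liver PSGL1hi replicate 1 (0.66, adjusted p = 0.12). In spleen Rps27 had 9.24 and 7.38 against 5.66 and 6.14 CPM (0.49, adjusted p = 0.077), and in lung 3.48 and 4.64 against 4.54 and 4.62 CPM (-0.18, adjusted p = 0.57).

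Of the 10 members lower in spleen PSGL1lo, Rps27l among them, 8 had a unique share of at least 50%, and the changes of the other 9 were small. Rpl41, the smallest ribosomal protein, had 72.2 and 64.2 CPM in PSGL1lo and 74.4 and 99.6 CPM in PSGL1hi (log2 change -0.35, adjusted p = 0.030). Rpl14 had 176 and 183 against 204 and 244 CPM (-0.32, adjusted p = 0.0041), and Rplp0 had 816 and 740 against 914 and 996 CPM (-0.30, adjusted p = 0.0073). The fractions did not overlap in any of these 3, and replicate 2 of PSGL1hi was the highest of the 4 libraries in each. Rps19, whose mutation is the commonest known cause of Diamond-Blackfan anaemia, had 44.1 and 42.4 against 52.5 and 52.99 CPM (-0.29, adjusted p = 0.039). Rps2 and Rps18, both higher in cGVHD than in GVHD-free PSGL1lo cells, were lower in cGVHD PSGL1lo than in PSGL1hi (-0.28 and -0.26, adjusted p = 0.022 and 0.025), and both comparisons use the same cGVHD PSGL1lo libraries. Without PSGL1hi replicate 2 the changes of Rpl41, Rpl14 and Rplp0 were -0.13, -0.19 and -0.24 and did not pass. Rpl41 was also lost without either PSGL1lo replicate (-0.44 and -0.28) and Rplp0 without PSGL1lo replicate 2 (-0.24), Rps19 without any 1 library (-0.31 to -0.27), and Rps2 without either PSGL1lo replicate (-0.29 and -0.27) or PSGL1hi replicate 1 (-0.18).

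The 3 members higher in spleen PSGL1lo were all lowly expressed and under 50% unique. Rpl24 had 6.78 and 6.60 CPM in PSGL1lo and 3.09 and 3.93 CPM in PSGL1hi (log2 change 0.93, SE 0.25, adjusted p = 0.0072). Rpl10, a protein near the peptidyl transferase centre that joins the large subunit late, had 14.2 and 12.9 against 8.33 and 8.30 CPM (0.70, SE 0.19, adjusted p = 0.0072). Rpl17, at the exit of the peptide tunnel, had 13.6 and 12.9 against 9.31 and 10.6 CPM (0.41, SE 0.15, adjusted p = 0.037). The fractions did not overlap in any of the 3. Rpl24 did not pass without PSGL1hi replicate 1 (0.77), Rpl10 without PSGL1lo replicate 1 (0.63) or Rpl17 without any 1 library (0.32 to 0.50). The spleen counts rest on single libraries: 3 members were lower without either PSGL1lo replicate and 2 without PSGL1hi replicate 2, and 1 was higher without PSGL1lo replicate 1 or PSGL1hi replicate 1.

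In liver the members lower in PSGL1lo beside Rps27l were Rpl22l1, Rpl5 and Rpl39. Rpl5, which carries the small 5S RNA with Rpl11 and binds Mdm2, had 12.7 and 13.98 CPM in PSGL1lo against 19.6 and 17.0 CPM in PSGL1hi (log2 change -0.46, SE 0.13, adjusted p = 0.011). Rpl39 had 75.8 and 85.8 against 119 and 97.9 CPM (-0.42, SE 0.12, adjusted p = 0.014). Neither gene overlapped between fractions. All 5 liver calls were lost without liver PSGL1hi replicate 1, where Rpl5 stood at -0.36 and Rpl39 at -0.28. These 2 were also lost without PSGL1lo replicate 1 (-0.38 and -0.33), while 4 members were higher without liver PSGL1lo replicate 2 and 2 without PSGL1hi replicate 2. With library totals alone 2 were higher and 3 lower, and the split over all genes was 1630 higher and 1287 lower in place of 1171 and 1695.

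In lung the largest decrease in PSGL1lo was that of Rps10, a small subunit protein that is ubiquitinated when ribosomes collide and whose pyrimidine run is printed above. It had 10.9 and 12.2 CPM in PSGL1lo and 25.3 and 24.3 CPM in PSGL1hi libraries. The fractions were far apart, with a log2 change of -1.10 and a standard error of 0.17 (adjusted p = 3.0e-05). In liver the order was the other way round without passing the test, 18.7 and 18.4 against 12.04 and 16.3 CPM, and in spleen the pairs overlapped, 20.2 and 31.6 against 30.6 and 24.8 CPM. Its unique share was 35.3%.

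Rpl5 had 13.6 and 13.5 CPM in lung PSGL1lo and 23.4 and 23.0 CPM in lung PSGL1hi (log2 change -0.78, SE 0.13, adjusted p = 4.8e-05), with no overlap and a unique share of 6.16%. Rpl10 had 4.75 and 4.55 against 6.66 and 8.34 CPM (-0.69, adjusted p = 0.011), the reverse of its order in spleen. Rpl17 (-0.43) and Rps6 (-0.41) were also lower, the latter at 13.9 and 12.5 against 17.3 and 17.7 CPM (adjusted p = 0.019). Rpl10 did not pass without PSGL1lo replicate 2 (-0.61) or PSGL1hi replicate 2 (-0.52), Rpl17 without any 1 library (-0.48 to -0.39), or Rps6 without PSGL1lo replicate 2 (-0.29) or either PSGL1hi replicate (-0.43 and -0.40). The other 11 lower members changed by -0.56 to -0.20, among them the highly unique Rpl4, Rps19 and Rps21. Of these, Rps19 (-0.26, adjusted p = 0.049) was lost under several alternatives, among them DESeq2, library totals alone, the replicate block and the omission of either PSGL1hi replicate.

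Rpl7l1, a paralog of Rpl7 with a part in large subunit assembly, was the 1 member higher in lung PSGL1lo, at 57.1 and 59.3 CPM against 43.5 and 45.3 CPM. The pairs did not overlap, and the log2 change of 0.39 had a standard error of 0.09 (adjusted p = 0.0024), which held under every alternative. It is 87.8% unique. Its parent Rpl7 did not pass in this comparison. The number of lower members in lung depended on single libraries, with 6 without PSGL1lo replicate 1 and 3 without PSGL1hi replicate 2. With library totals alone 4 were lower and 1 higher: this scaling moved the median of all genes by 0.14 and their split to 3168 higher and 1665 lower, from 1774 and 2772, and the member median stayed 0.15 below that of all genes.

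**Figure D4:**
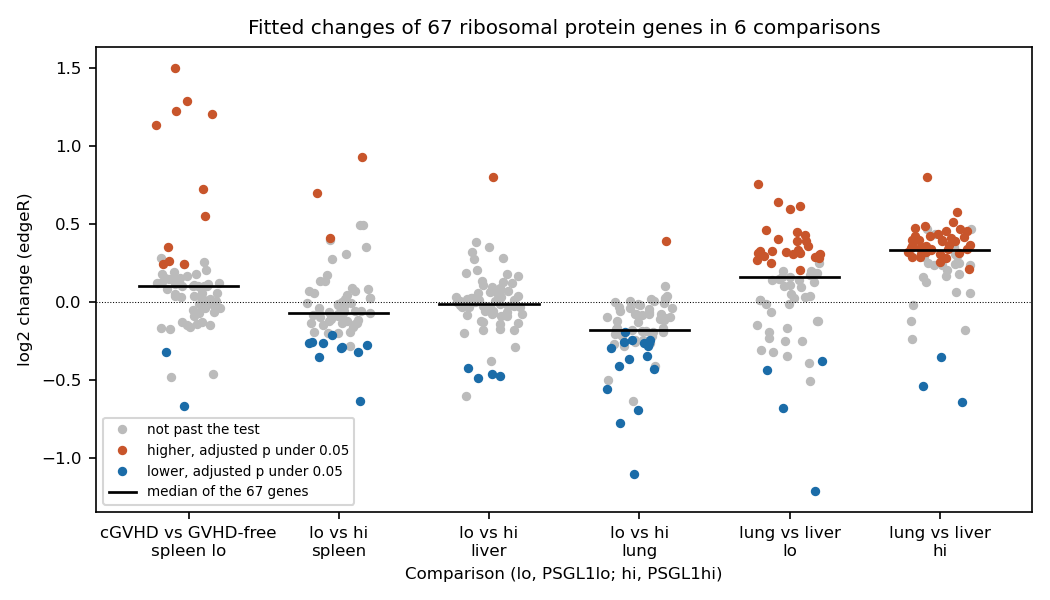
Fitted log2 change of each of the 67 members (vertical axis) in the 6 comparisons (horizontal axis), with genes past the test in orange (higher) or blue (lower), others in grey, and the member median as a black bar. The medians run from -0.18 for PSGL1lo against PSGL1hi in lung to 0.33 for lung against liver in PSGL1hi cells.

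Lung and liver libraries belong to the same numbered series, and within each fraction their comparison asks how the tissue of residence goes with these genes. These comparisons share libraries with those between fractions. Most members that passed were higher in lung. In PSGL1lo cells 26 members were higher (38.8%, against 19.6% of all genes tested) and 4 lower (5.97%, against 20.4%). In PSGL1hi cells 40 were higher (59.7%, against 20.1%) and 3 lower (4.48%, against 18.3%). The member medians were 0.16 and 0.33, with all genes at 0.00 in both, and 47 and 60 of the 67 members had a positive change. The PSGL1lo median moved with single libraries: it was 0.079 without liver replicate 2, 0.11 without lung replicate 2 and 0.24 without replicate 1 of either tissue. In both fractions 24 members were higher (35.8%, against 13.3% of all genes) and 3 lower (4.48%, against 12.6%).

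The increases included many members with a unique share of 50% or more, some of them close to 50%, such as Rpl14 (50.7%). Of the 29 members with a unique share of 50% or more, 17 were higher in lung PSGL1lo and 21 in lung PSGL1hi, and of the 38 others 9 and 19. Rpl4 (83.5% unique, with its 2 pyrimidine runs printed above) had 2488 and 2696 CPM in lung PSGL1lo and 2169 and 1881 CPM in liver PSGL1lo (log2 change 0.36, SE 0.07, adjusted p = 6.2e-04). In PSGL1hi cells it had 2934 and 3004 CPM in lung and 2062 and 2174 CPM in liver (0.49, SE 0.07, adjusted p = 2.1e-05). The tissues did not overlap in either fraction.

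Rpl14 had 227 and 223 CPM in lung against 178 and 165 CPM in liver PSGL1lo, and 265 and 268 against 196 and 178 CPM in PSGL1hi cells (log2 change 0.39 and 0.51, adjusted p = 5.4e-04 and 3.1e-05). Rpl39, at the narrow part of the peptide tunnel, had 131 and 116 against 75.8 and 85.8 CPM in PSGL1lo (0.61, adjusted p = 3.1e-04) and 148 and 145 against 119 and 97.9 CPM in PSGL1hi (0.44, adjusted p = 0.0056). In both genes the 2 lung libraries were above the 2 liver libraries in each fraction. Rpl35a, Rpl23, Rpl7, Rps4x and Rplp0 were higher in lung in both fractions too, with log2 changes of 0.29 to 0.57. In PSGL1lo, Rpl7, Rplp0 and Rps4x did not pass without liver replicate 2 (0.21, 0.16 and 0.27), nor Rps4x without lung replicate 2 (0.24), and Rpl39 did not pass in PSGL1hi without liver replicate 2 (0.30).

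Among members with a low count, Rpl21 (0.75, adjusted p = 0.039) had 5.13 and 4.82 CPM in lung PSGL1lo against 1.80 and 4.30 CPM in liver PSGL1lo, so its change rests on liver replicate 1, without which it was 0.21 (adjusted p = 0.57). Rpl31 (0.59, adjusted p = 0.011) had 13.1 and 11.6 against 7.82 and 8.63 CPM, and did not pass without replicate 1 of liver (0.51) or lung (0.49). Rpl21 did not pass in PSGL1hi cells, where lung held 5.96 and 4.70 CPM and liver 4.49 and 4.50 CPM, and the same was true of Rpl31, with 13.2 and 13.9 against 11.8 and 8.37 CPM.

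The 3 members lower in lung in both fractions were Rpl10, Rpl7l1 and Rps27l. Rpl10 had 4.75 and 4.55 CPM in lung and 8.504 and 13.2 CPM in liver PSGL1lo (log2 change -1.21, SE 0.20, adjusted p = 4.3e-05), and 6.66 and 8.34 against 11.7 and 10.2 CPM in PSGL1hi (-0.54, SE 0.19, adjusted p = 0.026). Rpl7l1 had 57.1 and 59.3 against 82.5 and 68.4 CPM in PSGL1lo (-0.38, adjusted p = 0.0020) and 43.5 and 45.3 against 68.3 and 70.5 CPM in PSGL1hi (-0.64, adjusted p = 9.3e-06). The tissues did not overlap for these genes in either fraction. The changes of Rps27l were -0.44 and -0.35 (adjusted p = 0.014 and 0.035), and the smaller was lost with DESeq2 and with limma voom. In PSGL1lo, Rpl7l1 did not pass without liver replicate 1 (-0.24), nor Rps27l without replicate 1 of liver (-0.36) or lung (-0.37). In PSGL1hi, Rpl10 did not pass without replicate 1 of liver (-0.44) or lung (-0.40), nor Rps27l without liver replicate 1 (-0.23) or lung replicate 1 or 2 (-0.33 and -0.40).

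Rps10 was lower in lung in PSGL1lo cells, 10.9 and 12.2 against 18.7 and 18.4 CPM (log2 change -0.68, SE 0.17, adjusted p = 0.0032). In PSGL1hi cells it was higher in lung, 25.3 and 24.3 against 12.04 and 16.3 CPM (0.80, SE 0.17, adjusted p = 6.5e-04). Neither pair of tissues overlapped. The 2 opposite changes amount to a difference of the fraction effect between lung and liver of -1.48 (SE 0.24, adjusted p = 3.8e-04).

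The counts for PSGL1lo cells fell to 13 higher members without liver replicate 2 and 15 without lung replicate 2, and to 2 lower members without liver replicate 1; for PSGL1hi cells 1 was lower without liver replicate 1 or lung replicate 1. With library totals alone 22 members were higher in lung PSGL1hi, the median of all genes moved by -0.13, their split was 1947 higher and 3971 lower in place of 2764 and 2524, and the member median stayed 0.33 above that of all genes.

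Genes of cell state and of other cells went with the tissues as well. Of 26 proliferation genes 25 were lower in lung than liver PSGL1lo (median -0.94), and 14 were lower and 1 higher in PSGL1hi (median -0.33). Of the 11 myeloid genes 9 were higher and 2 lower in lung in both fractions, and 18 immediate early and stress genes summed to 11932 to 14771 CPM in lung and 5441 to 7231 CPM in liver. Of 6 lung epithelial genes 5 were higher in lung in each fraction, with sums of 6.70 and 88.2 CPM in PSGL1lo and 41.5 and 33.2 CPM in PSGL1hi, against at most 0.856 CPM in liver. Replicate 2 of lung PSGL1lo was thus the highest in these genes. Of 5 hepatocyte genes 5 and 4 were lower in lung, and they summed to 52.7 and 44.4 CPM in liver PSGL1lo and 22.1 and 17.2 CPM in liver PSGL1hi. Both CD8 T cell genes were lower in lung in each fraction, and of the 3 NK cell genes 2 were lower and 1 higher. The part of these in the ribosomal protein changes was not tested.

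**Figure D5:**
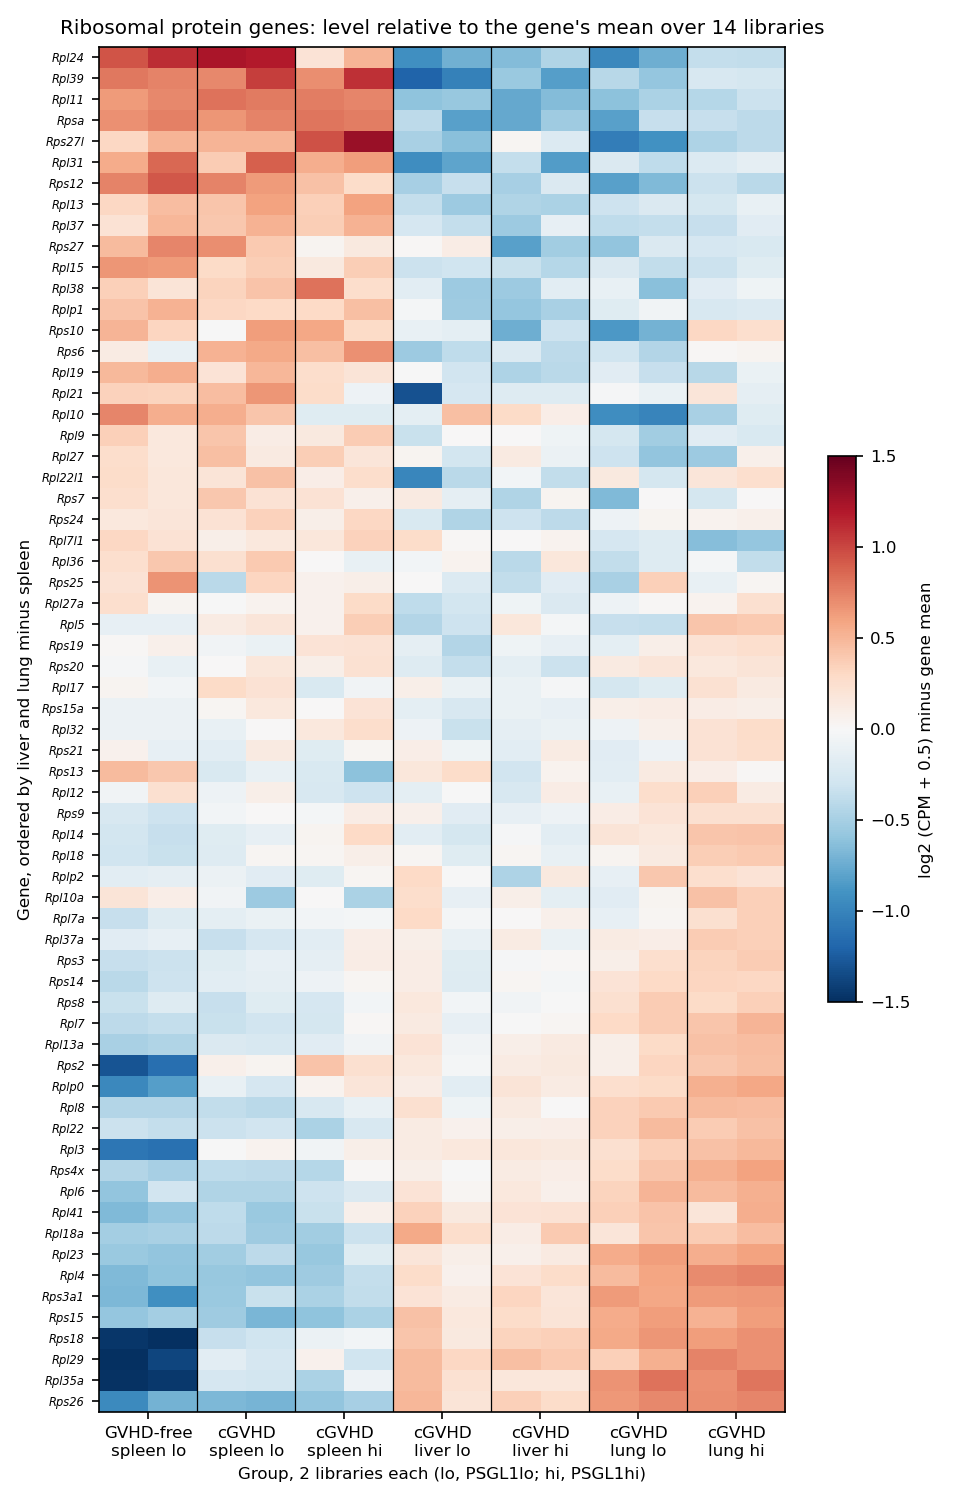
Level of 65 of the 67 members (rows, ordered by the liver and lung mean minus the spleen mean) in the 14 libraries (columns), as log2(CPM + 0.5) minus the mean of the gene, with colour from low to high. Genes such as Rpl24 and Rpl39 at one end are high in spleen and Rps26 and Rps15 at the other end are high in liver and lung.

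Between cGVHD spleen and the other tissues the family split by gene, given here as levels with no test. All 4 cGVHD spleen libraries were below all 8 liver and lung libraries for 16 members (23.9%, against 17% of all genes tested) and above them for 17 (25.4%, against 16.6%). The members higher in liver and lung included Rps26, with 114 to 131 CPM in cGVHD spleen and 211 to 308 CPM in liver and lung (mean log2 difference 1.13), Rps15 (1.0) and Rpl4 (0.93). The members higher in spleen were led by Rpl24 (-1.64), Rpl39 (-1.53), Rpl11 (-1.36), Rps27l (-1.35) and Rpsa (-1.31). Rpsa, which doubles as a laminin receptor, had 48.6 to 53.9 CPM in cGVHD spleen and 17.2 to 24.1 CPM in liver and lung. Rpl11, the partner of Rpl5 on Mdm2, had 26.0 to 27.5 against 8.85 to 12.3 CPM. The 2 GVHD-free spleen libraries lay near the cGVHD spleen libraries for both, at 49.7 and 51.9 CPM for Rpsa and 24.4 and 25.9 CPM for Rpl11.

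Parent and paralog genes are set side by side because their proteins can take the same place in the ribosome. Rpl22, which alpha-beta T cells need for their development, had 218 to 256 CPM in all 6 spleen libraries, 318 to 330 CPM in liver and 385 to 421 CPM in lung, with no overlap of the tissues. It did not differ between fractions by the test in any tissue, and it was higher in lung than in liver in both (log2 change 0.31 and 0.32, adjusted p = 0.0019 in each), although the PSGL1hi call was lost with library totals alone (0.18). Its paralog Rpl22l1, which Rpl22 can repress, had 47.7 to 60.2 CPM in spleen, 22.2 and 33.3 CPM in liver PSGL1lo, 43.2 and 34.2 CPM in liver PSGL1hi, 49.2 and 36.7 CPM in lung PSGL1lo and 50.4 and 53.05 CPM in lung PSGL1hi. The liver PSGL1lo libraries were the lowest, and Rpl22l1 was lower there than in liver PSGL1hi (-0.49, SE 0.16, adjusted p = 0.030) and than in lung PSGL1lo (0.64 for lung against liver, SE 0.16, adjusted p = 0.0023). Both calls rest on single libraries. Without liver PSGL1lo replicate 1 the changes were -0.21 (adjusted p = 0.43) and 0.36 (adjusted p = 0.075). The first was -0.31 without liver PSGL1hi replicate 1 (adjusted p = 0.34), and the second 0.41 without lung PSGL1lo replicate 1 (adjusted p = 0.093). The 5 genes most like Rpl22l1 over the 7 group means were Tmed8 (Pearson r = 0.981), Dock11 (0.980), Ttc19 (0.978), Zfp930 (0.976) and Cpeb2 (0.975), a description only. Rpl7 was higher and Rpl7l1 lower in lung than in liver in both fractions, and Rpl39 was high and Rpl39l low in spleen.

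Members differed in how much their group means varied. The range over the 7 groups was widest for Rpl29 (2.43 on the log2 scale), Rpl24 (2.35), Rpl35a (2.23), Rps18 (2.18) and Rps27l (2.14), and narrowest for Rps15a (0.30), Rps21 (0.36), Rplp2 (0.38), Rpl32 (0.45) and Rps20 (0.45). Lung PSGL1hi was the highest group for 33 of the 67 members and the lowest for 1, and GVHD-free spleen was the lowest for 24 and the highest for 11. These counts were not made over all genes tested, so whether they are particular to the family cannot be told. They also rank spleen against liver and lung libraries of the other series. Rpl32 followed the mean profile of the other members most closely (Pearson r = 0.90 over 7 group means), and Rpl7l1 (-0.62), Rps13 (-0.47) and Rpl10 (-0.40) least, all as descriptions.

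Other genes of the translation machinery were taken from lists to set beside the family. Of all genes tested, 19.6% were higher and 20.4% lower in lung than liver PSGL1lo, and 20.1% and 18.3% in PSGL1hi. In PSGL1lo against PSGL1hi these shares were 15.8% and 16.7% in spleen, 8.5% and 12.3% in liver, and 12.9% and 20.1% in lung. For cGVHD against GVHD-free spleen they were 14.7% and 12.8%. Whether a list departs from these shares was not tested. Of 19 translation factors and partners whose mRNAs carry the same 5′ motif, 13 were higher in lung than liver PSGL1lo cells, and 15 were higher in PSGL1hi cells, with medians of 0.33 and 0.38. Eif3e, a subunit of the initiation factor eIF3, rose by 0.49 and 0.45, with adjusted p = 8.3e-06 in PSGL1lo. In PSGL1lo against PSGL1hi cells, 4 of the 19 were lower in spleen, 2 in liver and 7 in lung, and 2 were higher in spleen and 1 in lung, among them Pabpc1, the poly(A)-binding protein, in spleen (0.55, adjusted p = 6.1e-07). In cGVHD against GVHD-free spleen 3 were higher and 1 lower. Of 28 other initiation factors, 6 were higher and 6 lower in lung than liver PSGL1lo, and 10 and 2 in PSGL1hi. In PSGL1lo against PSGL1hi, 6 of them were higher and 12 lower in spleen, 0 and 4 in liver, and 1 and 10 in lung.

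Among genes for ribosome assembly more were lower than higher in lung than in liver. Of 73 tested, 9 were higher and 31 lower in lung PSGL1lo, with a median of -0.14, and 7 higher and 23 lower in lung PSGL1hi, with a median of -0.16. Polr1e, a subunit of RNA polymerase I, fell by 0.72 and 0.81 in the 2 fractions. In PSGL1lo against PSGL1hi, 21, 17 and 19 of the assembly genes were lower in spleen, liver and lung and 1, 1 and 2 higher, with Bysl, which matures the small subunit, at -0.49, -0.60 and -0.96. In cGVHD against GVHD-free spleen 3 were higher and 17 lower, with a median of -0.17. The ribosomal proteins there had 11 higher (16.4%, against 14.7% of all genes tested) and 2 lower (2.99%, against 12.8%). For the nuclear genes of mitochondrial ribosomal proteins the counts were as follows: of 76 tested, 8 were higher and 21 lower in lung than liver PSGL1lo and 7 and 17 in PSGL1hi. In PSGL1lo against PSGL1hi, 28 of them were lower and 0 higher in spleen (median -0.25), 2 lower and 2 higher in liver (-0.04), and 9 lower and 3 higher in lung (-0.06).

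Of 30 genes that control ribosome output through mTORC1 or Myc, 6 were higher and 9 lower in lung than liver PSGL1lo and 8 and 3 in PSGL1hi. Between PSGL1lo and PSGL1hi, 10 were higher in PSGL1lo and 6 lower in spleen, 5 and 6 in liver, and 4 and 12 in lung. Mxd1, which competes with Myc for its partner Max, was among the genes of this list with the largest called changes. Myc itself was lower in cGVHD than GVHD-free spleen PSGL1lo (-0.46, adjusted p = 0.015), where 2 of the 30 were higher and 4 lower. Of 17 p53 targets, 7 were higher in lung in each fraction and 3 and 4 lower, with Cdkn1a up by 1.91 and 1.84, whereas Rps27l was lower there. Of the 17, 2 were higher in PSGL1lo than PSGL1hi and 6 lower in each tissue, and in cGVHD against GVHD-free spleen 4 were higher and 6 lower. Of 8 genes that handle stalled ribosomes, 1 was higher in each of the 6 comparisons, and 1, 2 and 2 were lower in PSGL1lo than PSGL1hi in spleen, liver and lung, 2 and 3 in lung than liver PSGL1lo and PSGL1hi, and 0 in cGVHD spleen. Of 12 naive and memory T cell genes, 9 and 10 were higher in lung than liver in PSGL1lo and PSGL1hi cells, and 1 was lower in each, with medians of 1.01 and 1.19. Between the fractions, 6 were higher in PSGL1lo and 2 lower in spleen, 3 and 5 in liver, and 3 and 6 in lung.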

How the data were processed

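RNA from sorted CD4+ T cells was sequenced as mRNA libraries (Kapa mRNA HyperPrep, per the labels' protocols). The authors deposited a table of raw read counts per gene for 14 libraries; per the submitters' processing notes TopHat2 2.0.8, HTSeq and the mm9 build were used. The gene annotation, the strand setting and the treatment of reads with several matches: not given in the sources used here. All 14 columns matched a sample's labels.

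Counts were tested as deposited with edgeR 4.0.16 in R 4.3.3 (quasi-likelihood F test, 2-sided, filterByExpr, TMM factors, 1 mean per group over all 14 libraries, 7 residual degrees of freedom, Benjamini-Hochberg over 13780 of 25017 genes, adjusted p under 0.05). All 67 members passed the filter on low counts. Levels of members are TMM-scaled CPM; the 5 CPM minimum, genes outside it and summed marker levels use CPM of the library total. Standard errors were taken from the log2 change and its F value. The common biological coefficient of variation was 7.35%. Within each group the 2 libraries differed beyond counting error, with a chi-square of 2.97 to 18.6 per degree of freedom. On simulated counts for lung PSGL1lo against PSGL1hi (13169 genes in the fit), 70.5% of genes changed 1.5-fold and 83.2% of those changed 2-fold were recovered, with 3 false calls. The simulation gave every gene the same coefficient of variation of 7.35% and no group difference beyond the altered genes. Its rates may therefore not hold for the real libraries.

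Members and lists were chosen with earlier results of these data known. Genes named with values were chosen by role (stalk, 5S particle, parent and paralog pairs), as the 6 largest called changes per direction and comparison, and as the 3 largest called changes per list. The genes printed with runs, the examples of high unique share and the members named from levels alone were chosen after their values were seen. Unique shares came from GENCODE M21 (GRCm38) transcripts with Python 3.11.15, and promoter sequences from RefSeq (GRCm38.p6). Neither is the mm9 build of the counts, and they were joined by symbol only. The alternatives were other scalings, no low-count filter, DESeq2 1.42.0, limma voom 3.58.1, only the groups compared, a replicate block, other member minimums and leaving out each library.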

Additional observations from a re-analysis of the deposited data

Results flagged for a closer look

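For 7 ribosomal protein genes the difference between PSGL1lo and PSGL1hi cells itself differed between tissues (interaction contrasts in edgeR's quasi-likelihood test, Benjamini-Hochberg adjusted over 13780 genes). The share of members was below that of all genes tested in each contrast. It was 1.49% against 6.84% for liver minus spleen, 10.4% against 16.6% for lung minus spleen and 1.49% against 5.97% for lung minus liver. Spleen effects come from another library series than liver and lung effects, so the first 2 contrasts set effects of different series side by side.

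Rpl24 was higher in PSGL1lo in spleen (6.78 and 6.60 against 3.09 and 3.93 CPM) while PSGL1lo held the smaller values in liver (1.15 and 1.39 against 1.48 and 1.78 CPM) and lung (1.10 and 1.38 against 1.95 and 1.92 CPM), with differences of -1.31 for liver minus spleen (adjusted p = 0.046) and -1.56 for lung minus spleen (adjusted p = 0.0079). Rpl10 was higher in PSGL1lo in spleen and lower in lung, a difference of -1.39 (adjusted p = 0.0013). Rpl17 followed the same order, with 13.6 and 12.9 against 9.31 and 10.6 CPM in spleen and 9.07 and 9.65 against 13.0 and 12.2 CPM in lung, a difference of -0.84 (adjusted p = 0.0063). The lung minus spleen difference of Rps10 was -1.01 (adjusted p = 0.0051), and its lung minus liver difference was -1.48 (adjusted p = 3.8e-04).

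Rps12, with 13.1 and 12.1 against 10.4 and 9.29 CPM in spleen and 4.11 and 4.60 against 5.96 and 5.60 CPM in lung, differed by -0.76 (adjusted p = 0.038). Rpl5 differed by -0.69 (adjusted p = 0.0098), its spleen pairs overlapping at 19.0 and 19.7 against 18.2 and 22.7 CPM. Rpl7l1 differed the other way, by 0.52 (adjusted p = 0.0076), with 72.1 and 75.9 against 76.3 and 86.0 CPM in spleen and the higher PSGL1lo levels in lung.

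The lung minus spleen differences of Rpl7l1, Rpl24, Rpl10 and Rpl17 and the lung minus liver difference of Rps10 passed under every alternative. That of Rps10 for lung minus spleen was lost without spleen PSGL1lo replicate 2 (-0.64) or PSGL1hi replicate 2 (-0.81), and that of Rpl5 without spleen PSGL1hi replicate 1 (-0.50). Those of Rps12 and of Rpl24 for liver minus spleen were lost under several alternatives. All but Rpl7l1 have a unique share of 35.3% or less.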

How the results depend on the processing

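Of 3132 recomputed log2 changes of named members 2902 stayed on their side of the threshold, 166 lost their call and 64 gained one. A change of sign was counted as reversed only where the main or the alternative fit called the gene, and there were 0 of these. The 2902 can therefore include changes that turned sign without being called. Of the 82 called changes of named members, 34 passed under every alternative. With library totals alone 2 members were higher in liver PSGL1lo than PSGL1hi, 4 lower in lung PSGL1lo, 22 higher in lung than liver PSGL1hi, and 0 differed for liver minus spleen; all genes then split 476 to 443, 1416 to 925 and 404 to 362 in the 3 interaction contrasts, from 364 to 579, 759 to 1523 and 287 to 536, and the member median of lung minus spleen turned from -0.07 to 0.06. Without the low-count filter 4 were higher in liver PSGL1lo, 7 differed for liver minus spleen and 4 for lung minus liver. The calls over all genes rose too, with 1268 higher in liver PSGL1lo in place of 1171. They split 540 to 855 for liver minus spleen and 394 to 673 for lung minus liver, from 364 to 579 and 287 to 536. DESeq2 and limma voom each gave 1 lower member in cGVHD spleen and 2 for lung minus liver, with 0 and 2 for liver minus spleen. With only the groups compared 2 were lower in liver PSGL1lo and 0 differed for liver minus spleen. In each case the cause was not tested. Beside the DESeq2, limma voom, group-only, leave-one-out and replicate-block counts of this section, the calls over all genes are not given. A shift over all genes cannot be told there from one in the members.

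Leaving out each library gave 6 to 10 higher and 0 lower members for cGVHD against GVHD-free spleen. For PSGL1lo against PSGL1hi it gave 1 to 2 higher and 2 to 14 lower in spleen, 0 to 4 and 0 to 5 in liver, and 1 and 3 to 12 in lung. For lung against liver it gave 13 to 29 higher and 2 to 6 lower in PSGL1lo, and 27 to 34 and 1 to 3 in PSGL1hi. The interaction contrasts gave 0 to 10 (liver minus spleen), 5 to 7 (lung minus spleen) and 1 to 6 (lung minus liver). A group reduced to 1 library was assumed to vary like the others.

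Deviations of same-numbered replicates correlated at -0.061 to 0.084 over the 6 comparisons. The largest values were those between the fractions in lung (0.084) and in liver (0.070). Such correlations cannot tell whether libraries with the same replicate number came from the same animals, and the main fit had no block. With the replicate block there were 10 higher and 2 lower members in cGVHD spleen, 3 and 9, 1 and 4, and 1 and 14 for PSGL1lo against PSGL1hi in spleen, liver and lung, 26 and 4, and 39 and 3 for lung against liver, and 1, 7 and 1 in the interaction contrasts. Depth limits Rpl24, Rps27, Rps13 and Rpl21, which held under 10 CPM.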
